A study of Mus musculus with 8 samples.

Results

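The S and G2/M genes are 45 genes whose transcripts accumulate while a cell copies its DNA and divides. They were found by symbol in the deposited feature lists, where all 45 were present among 31053 genes. Of these, 21 act in S phase, 23 act in G2 and mitosis, and Stmn1, which destabilises microtubules, was placed in neither set. UMI counts (unique molecular identifiers, the tags that mark single captured mRNA molecules) of these genes were followed in single cells of dorsal skin from female BALB/c mice aged 14 to 16 weeks. The 8 libraries formed 2 groups of 4, one from skin injected subcutaneously with PBMCsec, the secretome of irradiated human peripheral blood mononuclear cells, and one from skin injected with vehicle. The labels give no genotype other than the strain, and they do not say whether or when the skin was wounded, how long it was treated or which solution the vehicle was. Nothing in the labels says that each library is 1 animal, so the p-values measure only the spread between libraries, which may be technical.

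A dividing cell first loads the Mcm2-7 helicase on its origins of replication, then starts synthesis under cyclin E and Cdk2, copies its genome around the sliding clamp Pcna, and finally separates the copies under Cdk1, cyclins A and B and the anaphase-promoting complex. E2F factors switch on most S phase genes. The DREAM complex keeps G2 and mitotic genes off in resting cells, and B-Myb and Foxm1 switch them on later, largely through the CHR element and CCAAT boxes. In skin, the basal layer of the epidermis and the matrix of the growing hair follicle are the best known dividing compartments, whereas dermal fibroblasts of uninjured adult skin are mostly quiescent.

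The promoters of both sets are given first, because S and G2/M genes are known to be switched on through different elements. RefSeq promoters of GRCm38.p6, each running from 250 bases before to 50 bases after a start site, were matched for 37 of the 45 members. Those of Mcm4, Gins2, Hist1h1b, Ccne2, Ccna2, Aurkb, Tpx2 and Stmn1 were not matched. The CHR element (TTTGAA), the CCAAT box (CCAAT) and an E2F site (TTTGGCGC, TTTCGCGC, TTTCCCGC or TTTGCCGC) were searched on both strands. The E2F site can be read on both strands of one stretch when its ends overlap, which occurs in Mcm5 and Mcm6. The 37 members had 40 promoters. Counts of G2/M and S promoters below are counts of members with a match in any of their promoters. The share of all promoters counts each promoter by itself, so members with more than 1 promoter had more chances of a match. A CHR element was found in 15 of 20 G2/M promoters, in 3 of 17 S promoters and in 17.9% of all 32851 promoters. Within 50 bases of the start site it was found in 14 of 20 G2/M promoters, 1 of 17 S promoters and 5.05% of all. An E2F site was found in 8 of 17 S promoters, 1 of 20 G2/M promoters and 2.26% of all. CCAAT boxes were found in 17 of 20 G2/M promoters, 11 of 17 S promoters and 37.4% of all. A CHR element together with a CCAAT box was found in 14 G2/M promoters, 2 S promoters and 6.95% of all. A match describes letters and not a bound site.

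The stretches below show this layout in 4 G2/M members, Top2a at chr11:99024190-99024289 on the minus strand, Kif11 at chr19:37376282-37376381 on the plus strand, Cdc20 at chr4:118437354-118437453 on the minus strand and Mki67 at chr7:135716470-135716569 on the minus strand, and in 2 S members, Mcm6 at chr1:128359706-128359825 on the minus strand and Mcm5 at chr8:75109309-75109408 on the plus strand. All are given 5′ to 3′ along the gene and end before the start site. Capitals mark CCAAT boxes (CCAAT, or ATTGG on the other strand) and CHR elements (TTTGAA, or TTCAAA) in the first 4, and CCAAT boxes and E2F sites in Mcm6 and Mcm5.
Top2a: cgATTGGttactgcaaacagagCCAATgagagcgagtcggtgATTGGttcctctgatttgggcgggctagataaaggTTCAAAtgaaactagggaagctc
Kif11: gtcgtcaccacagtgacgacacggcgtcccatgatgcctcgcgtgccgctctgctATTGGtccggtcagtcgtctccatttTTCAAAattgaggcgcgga
Cdc20: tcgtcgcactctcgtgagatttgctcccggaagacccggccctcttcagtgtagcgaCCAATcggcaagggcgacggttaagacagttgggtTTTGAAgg
Mki67: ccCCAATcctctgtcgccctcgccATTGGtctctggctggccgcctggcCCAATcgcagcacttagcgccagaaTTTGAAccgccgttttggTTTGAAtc
Mcm6: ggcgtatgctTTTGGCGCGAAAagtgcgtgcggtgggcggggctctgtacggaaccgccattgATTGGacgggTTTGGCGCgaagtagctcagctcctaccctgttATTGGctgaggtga
Mcm5: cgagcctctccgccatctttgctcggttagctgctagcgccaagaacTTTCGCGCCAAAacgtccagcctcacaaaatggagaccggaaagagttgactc
The G2/M stretches shown pair CCAAT boxes with a CHR element further downstream, whereas those of Mcm6 and Mcm5 hold an E2F site in which forward and reverse matches overlap. This order depends on the stretch chosen. Outside the stretches, Cdc20 has a CCAAT box at -6 from the start site, downstream of its CHR element at -16. Top2a has another CHR element at -177.

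The libraries held 14753926 to 37880651 UMIs in 26231 barcodes called as cells. The study's filter (500 to 4000 genes, at most 20000 UMIs, at most 5% mitochondrial counts) left 6150 cells, between 151 and 1659 a library (fewest in PBMCsec library 2 and vehicle libraries 1 and 2, with 313, 151 and 208), with medians of 6156 to 9521 UMIs a cell. Of the barcodes removed, 16900 were over the mitochondrial limit, and 4 kept barcode sequences occurred in more than 1 library. Cells were clustered without the 45 members and without other cell cycle genes, so that no class rests on them. The classes were hair follicle cells (HFs), keratinocytes (KCs), T cells and related lymphocytes (TCs), dendritic cells and macrophages, fibroblasts (FBs), the small classes of endothelial cells (ECs) and of pericytes with smooth muscle (SMCs/PCs), neutrophils, and mast cells with basophils. Of 37 clusters, 31 were named, and 748 cells stayed unnamed.

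A cell was counted as cycling when it held UMIs of at least 3 of the 23 G2/M members or of at least 5 of the 21 S members. By this definition 692 of 6150 cells (11.3%) were cycling, and the share lay between 5.75% and 13.8% in single libraries. Of these cells, 218 passed the S criterion only, 262 the G2/M criterion only and 212 both. The score has no gap at its threshold, since 416 further cells missed it by 1 member and 156 of the cycling cells met it exactly. Cycling cells were also deeper, with a median of 10838.5 UMIs against 7922.5 in other cells and a higher median in 8 of 8 libraries, so shares of the larger classes and of named clusters are also given with cells thinned to 2000 UMIs, which leaves out 567 shallower cells.

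Hair follicle cells held the largest number of cycling cells and fibroblasts nearly none. In HFs 347 of 1663 cells (20.9%, 95% interval 18.9 to 22.9%) were cycling, in KCs 123 of 876 cells (14%, 95% interval 11.8 to 16.5%), in dendritic cells and macrophages 56 of 518 cells (10.8%, 95% interval 8.27 to 13.8%) and in TCs 81 of 765 cells (10.6%, 95% interval 8.5 to 13%). In FBs 9 of 1310 cells (0.687%, 95% interval 0.315 to 1.3%) were cycling, although their median of 9405 UMIs a cell was close to the 9392 UMIs of HFs. HFs thus supplied 50.1% of all cycling cells, KCs 17.8%, TCs 11.7%, dendritic cells and macrophages 8.09% and FBs 1.3%. These intervals (Clopper-Pearson) cover counting error only.

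Among the small classes, 4 of 84 ECs and 2 of 29 mast cells and basophils were cycling. No neutrophil was (0 of 119, which allows a share of up to 2.52%), at a median of only 1537 UMIs a cell, and 0 of 38 SMCs/PCs were, which allows up to 7.89%. Both limits take 3 cells of the total, and they concern cells that meet the definition at these depths, not all dividing cells. In neutrophils, Kif23 alone among the mitotic members reached more than a few counts, with 19 UMIs in 11.8% of cells, while 4 UMIs of Mki67 and 0 of Ccnb2 were found. Kif23, whose product MKLP1 organises the central spindle, was singled out here after its values were seen.

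The order of the classes varied from library to library. In HFs the share was 11.8, 9.76, 23.2 and 24.4% in PBMCsec libraries 1 to 4 and 40, 11.9, 22.3 and 18.3% in vehicle libraries 1 to 4. The 40% of vehicle library 1 rests on 10 cells, and without it the mean over libraries moved from 20.2% to 17.4%. HFs of libraries 3 and 4 were above those of PBMCsec libraries 1 and 2 and vehicle library 2. KCs gave 16.7, 20, 13.1 and 21.2% in PBMCsec libraries 1 to 4 and 14.3, 13.5 and 9.74% in vehicle libraries 2 to 4, and vehicle library 1, with 8 KCs, was left out. TCs gave 18.8, 7.53, 8.65 and 10.1% in PBMCsec libraries 1 to 4 and 11.4, 12, 6.98 and 13.5% in vehicle libraries 1 to 4, a narrower range without a split by library number. Dendritic cells and macrophages gave 8.75, 2.94, 13.4 and 8.75% in PBMCsec libraries 1 to 4 and 8.7, 0, 15.2 and 11.1% in vehicle libraries 1 to 4, with the highest value of each group in the library numbered 3. FBs gave 0, 1.52, 0.636 and 0% in PBMCsec libraries 1 to 4 and 3.57, 0, 0.683 and 1.36% in vehicle libraries 1 to 4, and the range of FBs did not overlap with those of HFs, KCs and TCs. The ranges of HFs, KCs and TCs overlapped one another. The classes share libraries and were not tested within them, so this overlap does not show that their shares are alike.

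**Figure D1:**
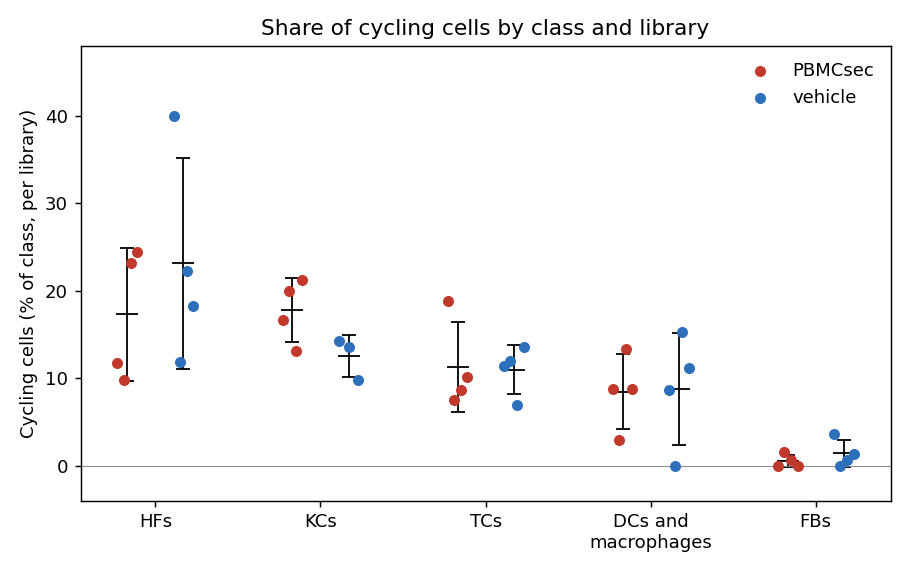
Share of cycling cells (percent of the class in each library, at least 10 cells) in 5 classes, with PBMCsec libraries in red, vehicle libraries in blue, and the mean and SD of each group as bars. FBs sit between 0% and 3.57%, HFs between 9.76% and 40%, and red and blue points overlap in every class, in KCs because 14.3% after vehicle lies above the lowest PBMCsec value of 13.1%.

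After thinning to 2000 UMIs, 9.94% of HFs, 6.02% of TCs, 5.32% of KCs, 4.68% of dendritic cells and macrophages and 0.157% of FBs were cycling. HFs stayed first and FBs last, while TCs moved above KCs and above dendritic cells and macrophages. TCs were the shallowest of these classes, with a median of 3364 UMIs against 11047 in KCs, and cells under 2000 UMIs were left out (100 TCs, 49 KCs, 113 HFs, 48 dendritic cells and macrophages and 39 FBs). Within TCs the cycling cells had a median of 7281 UMIs and the others 3206. Within KCs the medians were 11972 and 10883, and cycling cells were the deeper ones in 2 of 5 libraries compared.

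The upper limits on genes and UMIs removed many cells of this kind. Of 2587 barcodes under the mitochondrial limit but over 4000 genes or 20000 UMIs, 1130 (43.7%) were cycling, with 29.9% to 74.4% in single libraries, and 24.8% after thinning against 5.25% of the kept cells. By transferred class labels they held 652 of 1031 HFs (63.2%), 176 of 413 KCs (42.6%), 18 of 21 TCs and 29 of 622 FBs (4.66%). The shares of the kept cells are therefore those below these limits. Whether doublets add to the count was not tested, and the cells whose Scrublet score lay above the limit of the top 5% of their library, cells tied at that limit not included, held 36 cycling cells of 249 (14.5%) against 11.1% of the others.

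Within the hair follicle, cycling cells were concentrated in a few clusters. The cluster led by Krt35, S100a3 and Lef1, genes of hair cortex and matrix cells, held 122 of 230 cells (53%), between 44.8% and 62.1% in the 4 libraries with 10 or more of its cells. Of its cycling cells 68 passed both criteria. Pclaf stood among its 10 leading genes although the member had not been used for clustering. The cluster led by Krt71, Krt25 and Krt73, keratins of the inner root sheath, held 30 of 77 cells (39%). The cluster led by Sostdc1, Ccl27a and Aldh3a1 held 107 of 345 cells (31%), and the one led by Fhod3, Slc7a8 and Sfrp1, with Lgr5 among its leading genes, held 42 of 252 cells (16.7%). In contrast, the HF cluster led by Krt6a, a keratin of the companion layer and of stressed epidermis, held 1 of 206 cells (0.485%). The other HF clusters held 4.17% to 12.9%. An unnamed cluster led by Dio3, Tagln and Acta2 held 57 of 199 cells (28.6%). After thinning to 2000 UMIs the Krt35, Krt71, Sostdc1, Fhod3 and Krt6a clusters held 37.1%, 20.6%, 13.7%, 7.41% and 0%.

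The KC clusters differed in the same way. The KC cluster with Krt14, the keratin of the basal layer, among its leading genes held 77 of 372 cells (20.7%), and the cluster with Krt16 and Fosl1 held 36 of 230 cells (15.7%). Both clusters took their class name from the markers Krt5, Krt14 and Krt15, so Krt14 is not particular to the first. The cluster led by Krt1 and Krt10, the keratins of the differentiating layers, held 10 of 274 cells (3.65%), and an unnamed cluster led by Cst6 and Krt79 held 0 of 99 cells (0%), which by the same 3 cells allows up to 3.03%. After thinning these clusters held 9.94%, 3.06%, 1.17% and 0%, so that the Krt16 cluster was closer to the Krt1 cluster than to the Krt14 cluster. All of these clusters had medians of at least 10326.5 UMIs a cell. As the clusters were made from other genes of the same cells, these shares are descriptions and were not tested.

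Among TCs, the cluster led by Ctla4, Icos and Foxp3, genes of regulatory T cells, held 14 of 57 cells (24.6%), and the cluster with Gzma, Ccl5 and Nkg7, genes of cytotoxic lymphocytes, held 27 of 156 cells (17.3%). Of the 2 clusters with the γδ T cell gene Trdc among their 3 leading genes, the one with Blk held 1 of 91 cells (1.1%) and the one with Cd7 and Tcrg-C1 5 of 55 cells (9.09%). The other TC clusters held 7.28% to 9.5%. After thinning the shares in the order named were 11.8%, 11.3%, 0% and 7.55%. The cluster led by Lyz1, Cd209a and Mgl2 held 34 of 233 cells (14.6%), the one led by Cd207, the Langerhans cell lectin, 12 of 124 cells (9.68%), and the macrophage cluster led by C1qa, C1qb and C1qc 10 of 161 cells (6.21%). Every FB cluster stayed low, from 0 of 74 cells (0%) to 3 of 187 cells (1.6%).

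**Figure D2:**
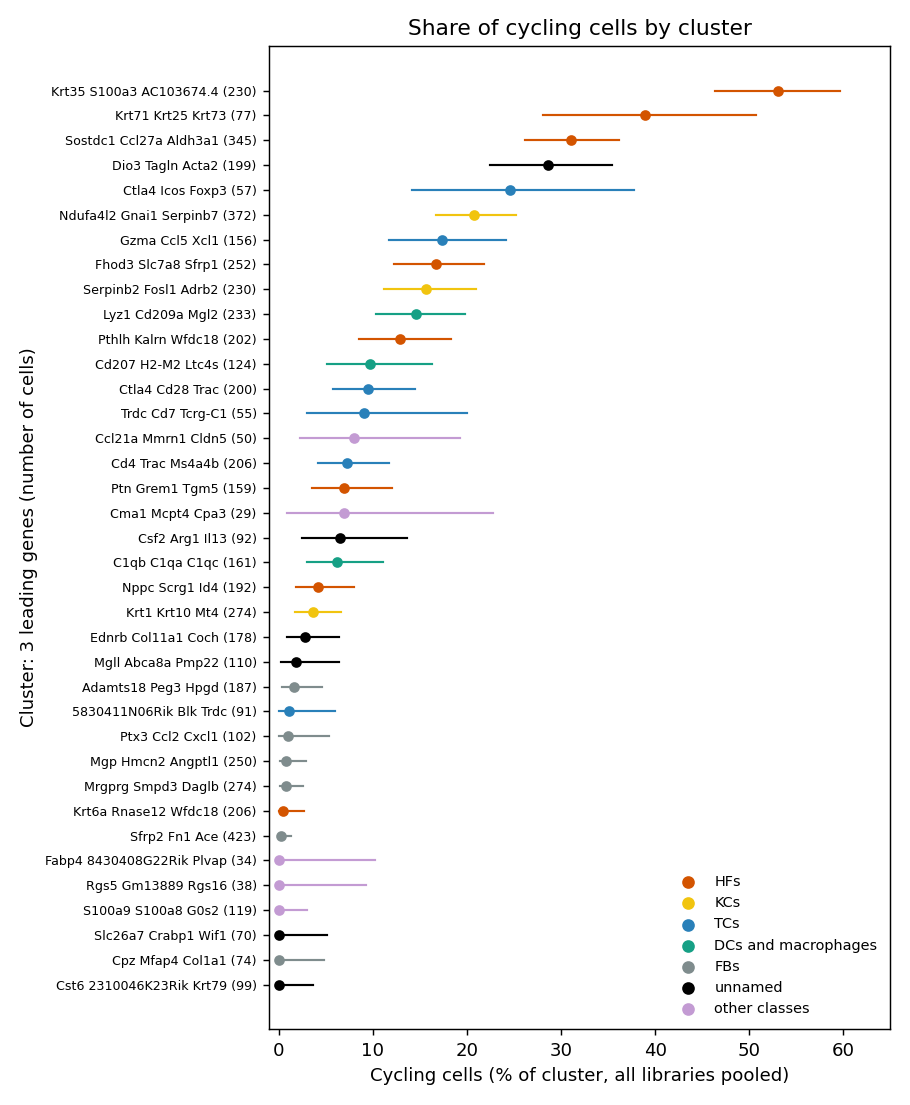
Share of cycling cells (percent of the cluster, all libraries pooled) in the 37 clusters, each named by its 3 leading genes with its number of cells, coloured by class, with bars for the 95% Clopper-Pearson interval. HF clusters span nearly the whole range, from 0.485% to 53%, whereas FB clusters stay at or below 1.6%.

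The members differed in the share of their UMIs found in cells counted as cycling. With the member itself left out of the definition, a median of 90.6% of the UMIs of a G2/M member lay in cycling cells (range 63.9 to 95.4%), against 62.9% (35.2 to 90.3%) for an S member. These medians rest on unequal cuts, since the definition asks for 3 G2/M members but for 5 S members. What part of the gap comes from that was not tested. Hmmr, a spindle protein, had 95.4% of its UMIs there and Plk1, the polo-like kinase of mitotic entry, 95.2%. Among S members the highest was Pclaf with 90.3% and the lowest Pcna with 35.2%. Pcna was detected in 16.2% of the cells not counted as cycling and Rrm1, the large subunit of ribonucleotide reductase, in 13.1%. Their UMIs were thus not limited to cells that met the definition. Cenpa, the centromeric histone H3 variant, stood out among G2/M members, with 63.9% of its UMIs in cycling cells. Stmn1 had 71.3%.

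The cells that passed one criterion only separated the members by phase. The level of each member in G2/M-type cells over that in S-type cells, as a log2 ratio of CPM (UMIs scaled to the total of the cells) with 10 CPM added, was above 0 for 23 of 23 G2/M members (median 2.44) and for 3 of 21 S members (median -0.78). The definition of both types from the other members largely fixes these signs. Mcm6 had 103 CPM in S-type and 11.9 CPM in G2/M-type cells (ratio -2.37). Cenpf, a kinetochore protein of late G2, had 6.02 and 262 CPM (4.09). The 3 S members on the G2/M side were Pclaf (1.66), Hist1h1b (1.28) and Ccne2 (0.07, on 99 UMIs in all). Pclaf, the clamp-associated factor, reached 95.9 CPM in G2/M-type cells against 23.6 CPM in S-type cells and 3.45 CPM in cells not counted as cycling.

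**Figure D3:**
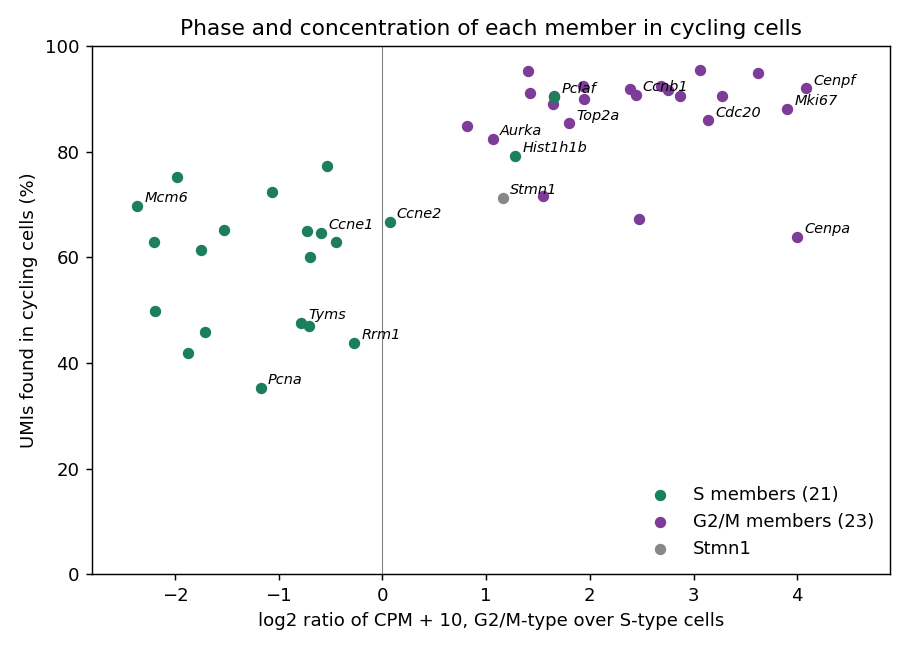
Each point is 1 member, with the log2 ratio of its CPM plus 10 in G2/M-type over S-type cells on the x axis and the percent of its UMIs found in cycling cells on the y axis, the member left out of both definitions. All 23 G2/M members lie right of 0 and all but Cenpa, Kif23 and Kif20b above 80%, while 18 of 21 S members lie left of 0, from -2.37 (Mcm6) upward.

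With cells pooled over libraries, the counts of each phase type were not in the same proportion in every class. No spread over libraries is given for these counts, and they were not tested. In HFs 113 cells were S-type, 107 G2/M-type and 127 both, 68 of the latter in the Krt35 cluster. In KCs the counts were 44, 60 and 19, so that cells with both sets were the smallest group there and the largest in HFs. TCs held 15, 39 and 27, and dendritic cells and macrophages 13, 21 and 22. The S criterion asks for 5 members and shallow cells pass it less easily, so the counts of TCs cannot be set directly against those of deeper classes.

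The values below are CPM, the member's UMIs in a class of a library scaled to the total UMIs of that class. In such sums, fewer dividing cells and less RNA a dividing cell cannot be told apart. In HFs, vehicle library 1 rests on 10 cells, so that a single UMI there is worth 10.8 CPM. Contrasts between classes are log2 fold changes from edgeR's quasi-likelihood test with the library as a block and Benjamini-Hochberg adjustment over all genes tested. A member with few UMIs in FBs passed the filter on low counts only when the other class was high. The direction of its contrast was thus largely set by the filter, and its adjusted p is given as a description.

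The subunits of the replicative helicase were higher in HFs than in FBs. Mcm2 (chromosome 6, 88883474 to 88898780), a subunit of the helicase, had 13.6, 5.23, 24.7 and 24.4 CPM in HFs of PBMCsec libraries 1 to 4 and 21.7, 4.3, 32.9 and 19.7 CPM in HFs of vehicle libraries 1 to 4. Mcm5 (chromosome 8, 75109569 to 75128439) had 16, 10.5, 25.4 and 24 CPM after PBMCsec and 43.4, 6.45, 32.9 and 19.3 CPM after vehicle. Mcm6 (chromosome 1, 128331590 to 128359664) had 8, 7.84, 25.8 and 28.9 CPM after PBMCsec and 10.8, 0, 33.5 and 22.9 CPM after vehicle. For each of the 3 subunits the libraries numbered 3 and 4 were above libraries 1 and 2 of PBMCsec and library 2 of vehicle, and the treatment groups overlapped. In FBs the same genes had 0 to 5.94, 0 to 1.64 and 0 to 3.34 CPM. The contrast of HFs against FBs was 2.64 (SE 0.27, adjusted p = 7.46e-07) for Mcm2, 4.55 (SE 0.34, adjusted p = 2.28e-08) for Mcm5 and 3.39 (SE 0.34, adjusted p = 1.08e-06) for Mcm6. In contrast, Mcm4 had 8.31 to 20.4 CPM in FBs and 13.1 to 54.2 CPM in HFs, a contrast of 0.74 (SE 0.26, adjusted p = 0.0206) that DESeq2 did not call (adjusted p = 0.0971). The 9 members of this group summed to 158 ± 63.6 CPM in HFs, 272 ± 128 CPM in TCs and 41.3 ± 8.2 CPM in FBs (SD, n = 8).

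The sliding clamp and its partner behaved differently. Pcna (chromosome 2, 132249162 to 132253314), the clamp that holds polymerases on DNA, had 28, 20.9, 36.4 and 35.9 CPM in HFs after PBMCsec and 32.5, 30.1, 42.3 and 23.7 CPM after vehicle, in libraries 1 to 4. Pclaf (chromosome 9, 65890237 to 65903266), which binds the clamp, had 17.6, 2.61, 51.3 and 50.3 CPM after PBMCsec and 43.4, 4.3, 85.1 and 42.2 CPM after vehicle. Pcna thus ranged from 20.9 to 42.3 CPM, whereas Pclaf ranged from its lowest values in PBMCsec library 2 and vehicle library 2 to its highest in vehicle library 3. FBs had 15 to 24 CPM of Pcna and 0 to 6.8 CPM of Pclaf. The contrast of HFs against FBs was 0.63 (SE 0.18, adjusted p = 0.00585) for Pcna and 3.93 (SE 0.33, adjusted p = 7.54e-08) for Pclaf. In TCs the contrasts were 1.6 (SE 0.17, adjusted p = 1.17e-07) and 4.89 (SE 0.34, adjusted p = 1.96e-10).

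Among the enzymes that supply deoxynucleotides, Tyms (chromosome 5, 30058202 to 30073617), thymidylate synthase, had 19.2, 10.5, 28.9 and 27.7 CPM in HFs after PBMCsec and 10.8, 8.59, 36.3 and 30.2 CPM after vehicle. Rrm2 (chromosome 12, 24708241 to 24714146), the small subunit of ribonucleotide reductase, had 17.6, 5.23, 21.6 and 20.7 CPM after PBMCsec and 10.8, 17.2, 49.2 and 25.3 CPM after vehicle, with vehicle library 3 highest. In FBs Tyms had 0 to 14.3 CPM and Rrm2 0 to 3.1 CPM. The contrast of HFs against FBs was 1.09 (SE 0.17, adjusted p = 7.04e-05) for Tyms and 3.27 (SE 0.25, adjusted p = 2.73e-08) for Rrm2. Tk1, the cytosolic thymidine kinase, had 4 UMIs in all FBs and 0 to 26.2 CPM in HFs, a contrast of 5.4 (SE 0.49, adjusted p = 7.04e-07). Rrm1 had the smallest contrast of all members tested in each of the 4 classes, among them 0.56 (SE 0.20, adjusted p = 0.024) in HFs and 0.17 (SE 0.28, adjusted p = 0.605) in dendritic cells and macrophages.

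Of the chromatin members, Hells (chromosome 19, 38930915 to 38971051), a nucleosome remodeller of the maintenance methylation pathway, had 15.2, 10.5, 29.6 and 22.2 CPM in HFs after PBMCsec and 32.5, 4.3, 37.1 and 17.3 CPM after vehicle, and the treatment groups overlapped. Hist1h1b (chromosome 13, 21779883 to 21780625), which encodes a replication-dependent linker histone H1, had 80.8, 18.3, 79.7 and 15.2 CPM after PBMCsec and 21.7, 4.3, 92.4 and 15.7 CPM after vehicle. PBMCsec libraries 1 and 3 and vehicle library 3 stood far above the others. TCs gave 162, 3.74, 143 and 31.8 CPM of Hist1h1b after PBMCsec and 76.8, 13.8, 106 and 23.1 CPM after vehicle, with PBMCsec libraries 1 and 3 the highest. KCs gave 23.7, 0, 36.6 and 3.27 CPM after PBMCsec and 25.3, 67.3 and 18.6 CPM in vehicle libraries 2 to 4. PBMCsec libraries 1 and 3 and vehicle library 3 were thus the highest in HFs and TCs, and PBMCsec library 3 and vehicle library 3 in KCs. The contrast against FBs was 6.25 (SE 0.32, adjusted p = 2.97e-10) in HFs and 6.81 (SE 0.35, adjusted p = 2.48e-12) in TCs, on 8 UMIs in all FBs.

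The G1/S cyclins were near the limit of detection. Ccne1 (chromosome 7, 38097984 to 38107534) had 2.4, 2.61, 2.66 and 2.59 CPM in HFs after PBMCsec and 0, 0, 5.8 and 1.21 CPM after vehicle, and Ccne2 (chromosome 4, 11191351 to 11204779) 0.8, 2.61, 3.04 and 1.85 CPM after PBMCsec and 0, 0, 5.05 and 0.804 CPM after vehicle. In all 6150 cells 116 UMIs of Ccne1 and 99 of Ccne2 were counted. Both cyclins had their highest HF value in vehicle library 3, and no contrast is drawn from counts this low.

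**Figure D4:**
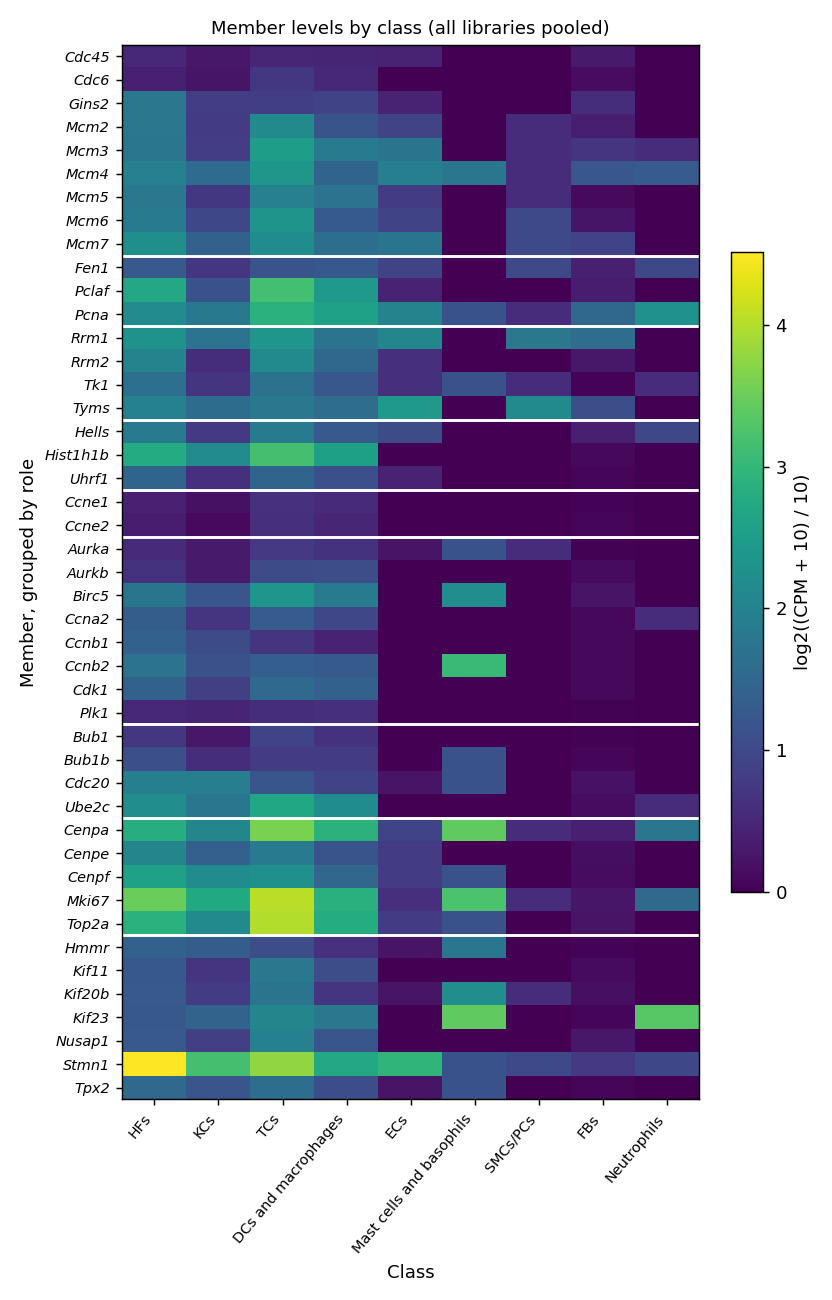
Level of each member (rows, grouped by role between white lines) in 9 classes (columns), as log2 of CPM plus 10 over 10, all libraries pooled. HFs, TCs, KCs and dendritic cells and macrophages are filled in most rows, FBs are dark except at Pcna, Rrm1, Mcm4 and Tyms, and the bright cells of mast cells and neutrophils rest on a few UMIs (Kif23 in neutrophils on 19).

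The mitotic kinases and cyclins were almost absent from FBs. Cdk1 (chromosome 10, 69335146 to 69352938), the kinase that drives mitosis, had 4.8, 0, 21.3 and 20.3 CPM after PBMCsec and 21.7, 0, 20.8 and 9.25 CPM after vehicle in HFs. Ccnb1 (chromosome 13, 100778650 to 100786570), its cyclin B partner, had 5.6, 0, 19.7 and 17.4 CPM after PBMCsec and 0, 0, 20.4 and 15.3 CPM after vehicle. Birc5 (chromosome 11, 117849251 to 117855743), survivin of the chromosomal passenger complex, had 6.4, 5.23, 26.6 and 22.9 CPM after PBMCsec and 21.7, 0, 29 and 27.3 CPM after vehicle. In all 3 genes PBMCsec libraries 3 and 4 and vehicle library 3 were above PBMCsec libraries 1 and 2 and vehicle library 2. FBs had 8 UMIs of Cdk1, 9 of Ccnb1 and 21 of Birc5 in 1310 cells. The contrast of HFs against FBs was 4.19 (SE 0.43, adjusted p = 2.59e-06) for Cdk1, 4.21 (SE 0.46, adjusted p = 7.10e-06) for Ccnb1 and 3.41 (SE 0.31, adjusted p = 3.35e-07) for Birc5.

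Of the checkpoint and anaphase members, Cdc20 (chromosome 4, 118432901 to 118437352), which activates the anaphase-promoting complex, had 7.2, 2.61, 32.7 and 18.9 CPM after PBMCsec and 21.7, 4.3, 40.6 and 28.1 CPM after vehicle in HFs. Ube2c (chromosome 2, 164769898 to 164778822), the ubiquitin-conjugating enzyme of that complex, had 15.2, 10.5, 47.8 and 35.9 CPM after PBMCsec and 0, 2.15, 42.7 and 33 CPM after vehicle. The Cdc20 stretch printed above has its CHR element next to the start site. FBs had 0 to 3.88 CPM of Cdc20 and 0 to 2.33 CPM of Ube2c. The contrast against FBs was 3.61 (SE 0.38, adjusted p = 1.16e-06) in HFs and 4.1 (SE 0.34, adjusted p = 5.03e-09) in KCs for Cdc20, and 4.56 (SE 0.34, adjusted p = 4.79e-08) and 4.29 (SE 0.35, adjusted p = 4.00e-09) for Ube2c.

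The centromere and chromosome members ranged widely between libraries. Mki67 (chromosome 7, 135689784 to 135716361), the proliferation marker that coats mitotic chromosomes, had 56, 7.84, 143 and 64 CPM after PBMCsec and 86.7, 15, 143 and 68.8 CPM after vehicle in HFs. Top2a (chromosome 11, 98992943 to 99024189), which untangles replicated DNA, had 30.4, 20.9, 98.3 and 44.4 CPM after PBMCsec and 43.4, 8.59, 83.8 and 39.8 CPM after vehicle. Cenpf (chromosome 1, 189640606 to 189688086) had 12.8, 2.61, 71.8 and 46.6 CPM after PBMCsec and 43.4, 19.3, 61.6 and 36.2 CPM after vehicle. All 3 genes were lowest in library 2 of a treatment group, PBMCsec for Mki67 and Cenpf and vehicle for Top2a. In TCs, Mki67 had 298, 28, 136 and 159 CPM after PBMCsec and 166, 48.2, 246 and 115 CPM after vehicle, with PBMCsec library 1 highest. In FBs Mki67 had 0 to 10.2 CPM. The contrast of Mki67 against FBs was 5.35 (SE 0.36, adjusted p = 6.43e-09) in HFs, 5.01 (SE 0.31, adjusted p = 7.82e-11) in KCs, 6.08 (SE 0.34, adjusted p = 8.10e-12) in TCs and 5.09 (SE 0.45, adjusted p = 2.01e-08) in dendritic cells and macrophages. Cenpa had 170.4, 84.1, 144 and 82.6 CPM after PBMCsec and 48.5, 141, 88.7 and 46.1 CPM after vehicle in TCs, and its groups overlapped.

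Of the spindle members, Stmn1 (chromosome 4, 134468320 to 134473843) had 156, 83.6, 245 and 169 CPM after PBMCsec and 368, 146, 273 and 188 CPM after vehicle in HFs and 3.16 to 20 CPM in FBs, a contrast of 4.6 (SE 0.31, adjusted p = 7.05e-09). It was detected in 75.4% of cycling and 16.7% of other cells. In dendritic cells and macrophages Stmn1 had 12.1, 15.4, 75.5 and 87.5 CPM after PBMCsec and 0, 8.42, 91 and 75.9 CPM after vehicle, with each of the libraries 3 and 4 above each of the libraries 1 and 2 in both groups. What sets the library numbers apart is not given in the labels and was not tested. Hmmr had 3 UMIs in FBs and a contrast of 6.04 (SE 0.50, adjusted p = 9.86e-09) in KCs and 5.4 (SE 0.60, adjusted p = 2.88e-06) in HFs.

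Across all members that could be tested, none was called lower in any class than in FBs. In HFs 38 of 38 members tested were called higher than in FBs (adjusted p under 0.05), where 32.1% of all 11406 genes were called higher and 32.1% lower. In KCs, over 7 libraries, the count was 31 of 33 against 33.6% higher and 37.7% lower. In TCs it was 33 of 33 against 30.6% and 37.3%. In dendritic cells and macrophages it was 30 of 32 against 32.3% and 33.3%. A member with few UMIs in FBs enters these tests only when the other class is high. The counts, and the contrasts of such members, are therefore a description of those that passed the filter on low counts. The 7 members not tested in HFs, 12 in KCs, 12 in TCs and 13 in dendritic cells and macrophages had too few UMIs in both classes.

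The members not called in KCs were Mcm3 and Rrm1, and in dendritic cells and macrophages Mcm4 and Rrm1. Their values in KCs were 0.27 (SE 0.19, adjusted p = 0.209) for Rrm1 and 0.49 (SE 0.33, adjusted p = 0.19) for Mcm3. In dendritic cells and macrophages they were 0.17 (SE 0.28, adjusted p = 0.605) for Rrm1 and 0.25 (SE 0.39, adjusted p = 0.593) for Mcm4. All 3 are S members that were found in FBs as well, with 75 UMIs of Mcm3, 248 of Rrm1 and 162 of Mcm4. The largest contrasts were Hmmr (6.04), Hist1h1b (5.65) and Cenpf (5.56) in KCs, and Hist1h1b (6.81), Top2a (6.36) and Mki67 (6.08) in TCs. In dendritic cells and macrophages they were Hist1h1b (6.32), Kif23 (5.82) and Top2a (5.3), and in HFs Hist1h1b (6.25), Tk1 (5.4) and Hmmr (5.4). Fold changes of Hmmr, Tk1, Kif23 and Hist1h1b, with 3 to 8 UMIs in all FBs, depend on the prior count of the fit. DESeq2 called 36 members higher in HFs, 27 in KCs, 33 in TCs and 27 in dendritic cells and macrophages.

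PBMCsec and vehicle libraries were compared in each class to ask whether the secretome changed the amount of division. The shares of cycling cells in the groups overlapped in every class. HFs held 17.3% ± 7.6 (SD, n = 4) in the PBMCsec libraries against 23.1% ± 12 (SD, n = 4) in the vehicle libraries, and the difference of -5.83 percentage points became -0.199 without vehicle library 1, the one with 10 HFs. At a mitochondrial limit of 10%, with 4 libraries in each group, it was 1.98. KCs held 17.8% ± 3.64 (SD, n = 4) in the PBMCsec libraries against 12.5% ± 2.43 (SD, n = 3) in the vehicle libraries. TCs held 11.3% ± 5.13 (SD, n = 4) in the PBMCsec libraries against 11% ± 2.81 (SD, n = 4) in the vehicle libraries. Dendritic cells and macrophages held 8.46% ± 4.28 (SD, n = 4) in the PBMCsec libraries against 8.76% ± 6.44 (SD, n = 4) in the vehicle libraries, and FBs 0.538% ± 0.717 (SD, n = 4) in the PBMCsec libraries against 1.4% ± 1.55 (SD, n = 4) in the vehicle libraries. The KC difference of 5.25 percentage points exceeded the SD of either group, with overlapping groups, and after thinning to 2000 UMIs it was -0.989. In the other 4 classes the difference was smaller than the larger SD. As the share sums the members, no p-value is given for it.

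With cells pooled over libraries, the makeup of a class also differed between the groups. The HF cluster led by Sostdc1, with 31% cycling cells, made up 28.1% of HFs after PBMCsec and 14.8% after vehicle. The Krt6a cluster, with 0.485%, made up 7.92% and 16%. By library the groups overlapped for the Sostdc1 cluster. It held 59 of 136, 9 of 41, 101 of 310 and 40 of 258 HFs in PBMCsec libraries 1 to 4. In vehicle libraries 1 to 4 it held 7 of 10, 12 of 42, 84 of 614 and 33 of 252. In the Krt1 and Krt10 cluster of KCs 9 of 134 cells were cycling after PBMCsec and 1 of 140 after vehicle. In the Cd209a cluster 18 of 147 and 16 of 86 cells were cycling. Apart from the counts by library, these values pool the cells of 4 libraries a group. None of them was tested.

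Gene by gene, edgeR's quasi-likelihood test called no member in any class. With an adjusted p under 0.05 it also called 0.0% (0 of 13182) of all genes in all cells together, and likewise 0.0% in HFs, 0.0% in KCs, 0.0% in TCs, 0.0% in dendritic cells and macrophages and 0.0% in FBs. The number of genes called by DESeq2 was 8 in all cells, 1 in HFs, 2 in KCs, 3 in TCs, 7 in dendritic cells and macrophages and 0 in FBs, none of them a member. At an unadjusted p under 0.05, 2 of 20 members tested passed in TCs, where 3.29% of all genes did, and 0 passed elsewhere, where 2.54% of genes did in all cells, 3.43% in HFs, 1.04% in KCs, 4.6% in dendritic cells and macrophages and 2.63% in FBs. No tested member had groups that did not overlap, against 1.84% of genes in all cells, 2.72% in HFs, 2.51% in KCs, 2.59% in TCs, 2.66% in dendritic cells and macrophages and 2.12% in FBs. Uhrf1 in FBs, which had too few UMIs to be tested, was found in the 4 PBMCsec libraries and in none of the vehicle libraries, with 6 UMIs in all. It is 1 of 40 members not tested in FBs, and vehicle libraries 1 and 2 held only 28 and 19 FBs. How many untested genes split in this way was not counted. On simulated data the edgeR treatment fits recovered between 14.3% (all cells) and 50.4% (TCs) of 2-fold changes. A count of 0 members called therefore does not exclude changes of that size.

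Over all cells, 39 of 45 members were lower and 6 higher after PBMCsec, with a median log2 fold change of -0.25 against -0.02 over all genes. This sum also moves with the cell makeup of a library, and the median became 0.08 without vehicle library 3. Within classes the median was -0.06 in HFs (37 members tested, 23 lower), 0.04 in KCs (24, 11 lower), 0.05 in TCs (20, 9 lower), -0.37 in dendritic cells and macrophages (9, 7 lower) and -0.15 in FBs (5, 4 lower). The members' values are not independent of each other, since all of them rest on the same cycling cells. The median standard error of a member was 0.49 in HFs, 0.45 in TCs and 0.59 in dendritic cells and macrophages.

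The smallest p-values were those of helicase subunits in TCs. Mcm3 had 56.8, 20.5, 26.2 and 34.9 CPM after PBMCsec and 52.5, 48.2, 57.2 and 135 CPM after vehicle, a log2 fold change of -1.01 (SE 0.39, unadjusted p = 0.0218). Mcm2 had 34.4, 11.2, 21.3 and 41.3 CPM after PBMCsec and 32.3, 44.7, 37.2 and 88.5 CPM after vehicle, a log2 fold change of -0.89 (SE 0.41, unadjusted p = 0.0479). The adjusted p of edgeR was 0.999 for both, and vehicle library 4 was the highest library for each. In HFs the smallest were Rrm2 at -0.70 (SE 0.36, unadjusted p = 0.0756), Stmn1 at -0.40 (SE 0.31, unadjusted p = 0.23) and Cdc20 at -0.53 (SE 0.52, unadjusted p = 0.33). In KCs they were Hist1h1b at -0.86 (SE 0.57, unadjusted p = 0.155), Tyms at -0.40 (SE 0.30, unadjusted p = 0.202) and Top2a at -0.61 (SE 0.48, unadjusted p = 0.228). In dendritic cells and macrophages Cenpa had 0.75 (SE 0.37, unadjusted p = 0.0615), Mki67 -0.53 (SE 0.59, unadjusted p = 0.387) and Ube2c -0.78 (SE 0.93, unadjusted p = 0.42). In FBs, where 5 members could be tested, Mcm4 had -0.39 (SE 0.33, unadjusted p = 0.255), Mcm7 -0.42 (SE 0.36, unadjusted p = 0.263) and Tyms -0.15 (SE 0.39, unadjusted p = 0.709). Over all cells Mcm3 had -0.34 (SE 0.24, unadjusted p = 0.178), Stmn1 -0.43 (SE 0.30, unadjusted p = 0.186) and Hells -0.37 (SE 0.26, unadjusted p = 0.187).

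**Figure D5:**
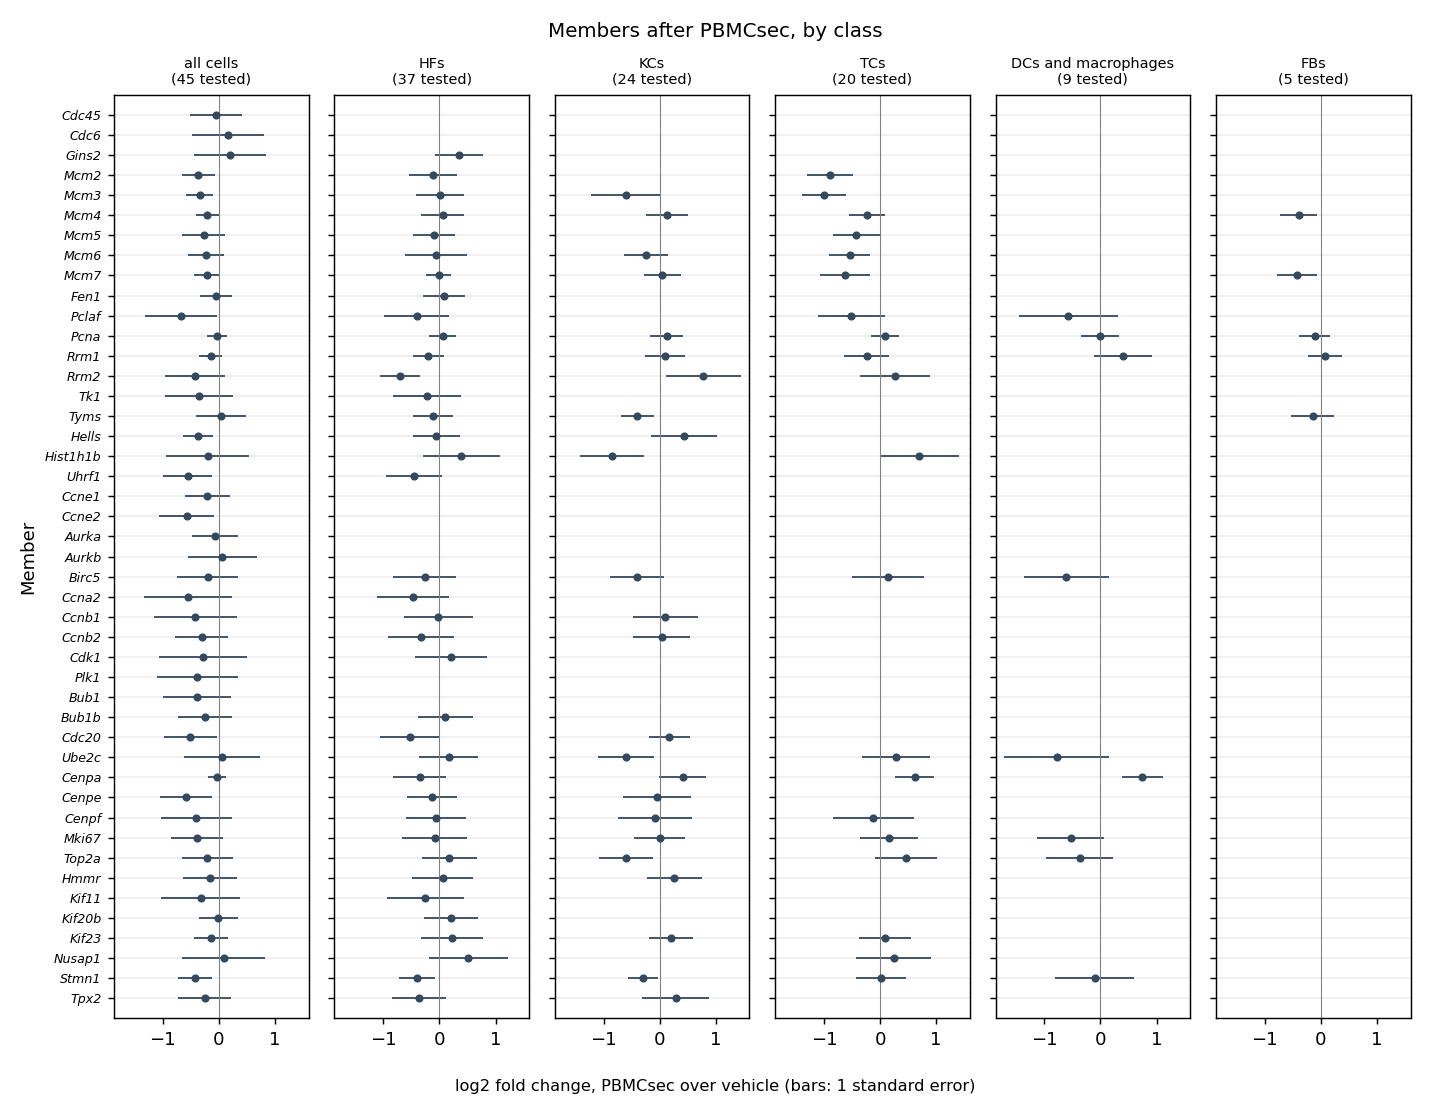
Log2 fold change of each tested member, PBMCsec over vehicle, in all cells and in 5 classes, with bars of 1 standard error from edgeR. Points scatter on both sides of 0 in HFs, KCs and TCs, lie mostly left of 0 over all cells (39 of 45), and span -1.01 (Mcm3) to 0.70 in TCs.

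Cell cycle genes outside the module followed the cycling cells. In HFs, 24 of 24 further S phase genes were higher in cycling than in other cells (median log2 ratio 1.53, CPM plus 10), as were 60 of 61 further G2/M genes (median 1.69). In TCs the counts were 23 of 24 (1.11) and 61 of 61 (1.9), and in KCs 24 of 24 (0.71) and 61 of 61 (1.5). Medians of the regulators were lower. Of 19 genes of the Rb and E2F families, the MuvB core and Foxm1, 16 were higher in cycling HFs (median 0.43), with Foxm1, the activator of mitotic genes, at 15.4 against 0.939 CPM and E2f1 at 15.7 against 2.56 CPM. Cycling and other cells differ in depth and cluster, so these ratios are descriptions.

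The inhibitors of the cycle did not share one direction. Cdkn1b, which encodes p27, had 110.0 CPM in cycling and 141 CPM in other HFs and was higher in cycling cells in 0 of 6 libraries. Cdkn2b, which encodes p15, had 19.5 and 41.6 CPM (0 of 6 libraries). Cdkn2c, which encodes p18, had 20.1 and 5.72 CPM and was higher in 4 of 6. Of 11 p53 targets and growth arrest genes 2 were higher in cycling HFs (median -0.21), and Btg1, an antiproliferative gene, had 301 against 472 CPM. Of the D-type cyclins, Ccnd1 had 195 against 295 CPM and Ccnd2 610.2 against 451 CPM. The genes of this paragraph were chosen after their values were seen.

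Against FBs, where 32.1% of all genes were called higher and 32.1% lower, edgeR called 42 of 50 further G2/M genes tested higher and 1 lower in HFs, and 17 of 20 further S phase genes higher and 0 lower. Of the CDK inhibitors 3 of 7 were higher and 3 lower. Cdkn1c, which encodes the inhibitor p57, had -6.03 (SE 0.28, adjusted p = 1.07e-10), Cdkn2c -2.36 (SE 0.25, adjusted p = 9.04e-07) and Cdkn2a, which encodes p16 and p19Arf, -4.27 (SE 0.64, adjusted p = 5.28e-05), all lower in HFs. Ccnd1 had 3.77 (SE 0.32, adjusted p = 1.13e-07) and Ccnd2 2.78 (SE 0.24, adjusted p = 1.13e-07), both higher. Thus Ccnd1 was higher in HFs than in FBs and, within HFs, lower in cycling than in other cells. After PBMCsec, edgeR called 0 genes of these 6 lists in each class, as it called 0 of all genes.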

How the data were processed

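For each 10x Genomics 3′ library of mouse skin (4 PBMCsec, 4 vehicle) the authors deposited UMI counts by gene and called cell, aligned to mm10 and not normalized. The file headers name Cell Ranger 3.0.2, the study's methods v4.0. The cell filter of the study was applied and Gm42418, Gm17056 and Gm26917 were dropped. Seurat 5.3.0 (R 4.3.3) integrated the libraries and clustered the cells. Clusters took a class name from its markers, of which 3 or more had to reach 25% of the cells and 2-fold the CPM of all other cells. UMIs were then summed by library and class, with 10 or more cells each. The sums were fitted with edgeR 4.0.16, using TMM factors, filterByExpr and the two-sided quasi-likelihood test, and p-values were adjusted by Benjamini-Hochberg over all genes tested. DESeq2 1.42.0 was an alternative. In the treatment tests, after the study's rule, 3 collagens were kept only in FBs and in all cells together. The major keratins were kept only in KCs, HFs and all cells together. The contrasts between classes left out neither. The edgeR fits were tested on simulated data, those of DESeq2 were not. In the treatment fits, 2-fold changes were recovered for 14.3% of the changed genes in all cells, 20.9% in KCs and 27.1% in dendritic cells and macrophages. The share was 30.3% in FBs, 30.4% in HFs and 50.4% in TCs. Changes of 4-fold were recovered for 79.4% in all cells and for up to 98.9%, in FBs. HFs, and KCs over 7 libraries, were added to the treatment tests after the cells were counted.

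The members and gene lists were chosen with earlier results of these data known. Named genes were 20 members, the 3 largest called rises and falls of a comparison or, with none called, the 3 smallest p-values, and up to 3 genes of each other list by p. To see whether library numbers pair the groups, each library's deviations from its group were correlated between same-numbered libraries. Numbers 1 to 4 gave 0.31, 0.27, 0.19 and 0.42 in TCs and 0.29, 0.30, 0.47 and 0.57 in all cells, above 0.1 in every pair, which did not hold in the other classes. Libraries with different numbers were not compared, so these values cannot show that the numbers pair the groups. The labels do not say what a number marks.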

Additional observations from a re-analysis of the deposited data

Results flagged for a closer look

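Ccne2 in HFs stood apart in 1 library. Vehicle library 3 had 5.05 CPM against 0.804, 0 and 0 CPM in the other vehicle libraries, a gap beyond Dixon's limit for 4 values. It was the 1 flag among 51 groups of 4 libraries tested, and chance flags about 1 in 20.

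Barcodes above the upper limits on genes or UMIs, which only the setting without upper limits uses, held 43.7% cycling cells, against 11.3% of the kept cells. This was so in each library, from 29.9% to 74.4%. Their median was 21409 UMIs against 8237 in the kept cells, and the part of depth and of doublets was not tested beyond the thinned shares of 24.8% and 5.25%.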

How the results depend on the processing

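After PBMCsec 0 members were called in each class under the alternatives run for it (100 fits over all classes), among them DESeq2, another filter, each left-out library and the replicate block. The replicate block, with library number as a term, also gave 0 in TCs and in all cells, where same-numbered libraries correlated above 0.1 in every pair. The block changed no call. The share of cycling cells depended on the definition and on depth, and the cause of each shift was not tested. With 2 G2/M or 3 S members as the minimum, the mean over libraries was 36.6% in HFs, 34.6% in KCs, 25.5% in TCs, 22.2% in dendritic cells and macrophages and 8.92% in FBs, and the FB difference became 1.42 percentage points. With 5 or 8 members it was 12.3% in HFs, 4.19% in dendritic cells and macrophages, 0.489% in FBs and 8.01% in KCs, with a treatment difference of 0.957, and 5.12% in TCs. Thinning to 2000 UMIs gave 0.563% in FBs, 6.79% in HFs (7 libraries, since vehicle 1 then held under 10 HFs, against 17.4% in the same 7 unthinned), 4.68% in KCs, 5.97% in TCs and 3.19% in dendritic cells and macrophages, and the KC difference became -0.989. Without the upper limits the shares were 39% in HFs, 27.8% in KCs (8 libraries), 15.8% in dendritic cells and macrophages and 2.58% in FBs, and the difference in dendritic cells and macrophages was -7.72. Over these settings, the 10% mitochondrial limit and the removal of high doublet scores, the difference ranged over -10.1 to 1.98 in HFs, -0.989 to 8.2 in KCs, -1.69 to 3.23 in TCs, -7.72 to -0.0768 in dendritic cells and macrophages, -1.13 to 1.42 in FBs. Its sign turned in HFs at the 10% limit (1.98), and in TCs after thinning (-0.809), without upper limits (-1.69) and with 5 or 8 members (-0.0953).

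Leaving out 1 library at a time, the share ranged over 17.4 to 21.7% in HFs, 14.6 to 16.5% in KCs, 10 to 11.7% in TCs, 7.66 to 9.84% in dendritic cells and macrophages, 0.599 to 1.11% in FBs, and the difference over -9.56 to -0.199 in HFs, 3.86 to 6.79 in KCs, -2.2 to 1.56 in TCs, -3.22 to 1.85 in dendritic cells and macrophages, -1.33 to -0.143 in FBs percentage points. The sign also turned in TCs without PBMCsec 1 (-2.2) or vehicle 3 (-1.02), and in dendritic cells and macrophages without PBMCsec 2 (1.53), vehicle 3 (1.85) or vehicle 4 (0.479). The FB difference shrank to -0.143 and the HF difference to -0.199 without vehicle 1, and removing high doublet scores, which leaves vehicle 1 with under 10 HFs and so drops it too, gave 0.148 in HFs. The members' median log2 fold change ranged over -0.35 to 0.33 in HFs, -0.35 to 0.52 in KCs, -0.26 to 0.21 in TCs, -0.88 to 0.16 in dendritic cells and macrophages, -0.30 to -0.01 in FBs, -0.47 to 0.08 in all cells. It changed sign with a single library left out in each of these but FBs, in all cells only without vehicle 3 (0.08). In libraries 1 and 2 alone it was 0.64 in FBs and 0.58 in dendritic cells and macrophages. The count of members higher than in FBs ranged over 35 to 38 in HFs, 23 to 32 in KCs, 29 to 34 in TCs, 25 to 30 in dendritic cells and macrophages. Without the library block, 9 members were called in KCs, 11 in TCs, 2 in dendritic cells and macrophages and 12 in HFs, because the filter then left 10, 11, 3 and 12 members. With the genes of the blocked fit kept, a choice made after the data were seen, the counts were 30, 33, 30 and 38. Class membership rests on markers, depth limits the shares of TCs and neutrophils, and KCs and HFs of vehicle library 1 rest on 8 and 10 cells.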

Other observations

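Cells with 5 to 10% mitochondrial counts, which the filter removed, held 660 cycling cells of 4968 (13.3%), with 7.19% to 18.5% in single libraries. By transferred class labels the share was 22.9% in HFs, 12.6% in KCs, 4.25% in TCs, 6.35% in dendritic cells and macrophages and 0.388% in FBs.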
